A study of Danio rerio with 8 samples.

Results

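The genes of zebrafish chromosome 22 were described in whole 2 dpf (days post-fertilisation) embryos that lack functional fmr1 and in wild type embryos. A gene was included if the count table gave 22 as its first chromosome value and if at least 4 of the 8 libraries held more than 1 read of it. This left 875 of the 1227 chromosome 22 genes in the table, among 23567 genes of all chromosomes that passed the same filter. The filter used the counts themselves, and the chromosome was singled out with earlier results of these libraries known, so the shares below are descriptions. At the edge of the filter, the 23 genes just inside it (more than 1 count in exactly 4 libraries) had total counts of 10 to 184 over all libraries, and the 20 genes just outside it (exactly 3 libraries) had 6 to 31.

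Of the 8 clutches, 4 were homozygous for hu2787, a nonsense allele of fmr1, and are named S2, S4, S5, S8 here. The other 4 were wild type, under the letters A, D, G, L. Each clutch was a pool of whole embryos from its own pair of parents, taken out of the chorion in E3 medium at 2 dpf, and its polyadenylated RNA was sequenced with strand kept. The parents, homozygous mutant or non-mutant, came from 1 imported stock in which some fish also carried the w2 allele of mitfa. No parent was homozygous for w2, but the study states that some of the clutches it examined carried it. The labels do not say which. Genotype of the embryo and genotype of its parents cannot be told apart. Library totals were 29726950 to 31122824 counts in mutant clutches and 29296538 to 33205738 in wild type clutches, of which chromosome 22 genes held 2.25% to 2.66%. As the check of the labels, fmr1 itself, which lies on chromosome 14, was lower in all 4 mutant clutches (19.5 to 23.4 CPM, read counts scaled to library size by TMM) than in the wild type clutches (47.1 to 54.2 CPM), with a log2 fold change of -1.22 and an adjusted p of 0.00551 by the edgeR quasi-likelihood test. Of 29 listed cell type markers, 20 were matched by symbol, and all were detected in every clutch. Of these 20, 6 had an unadjusted p below 0.05 in that test, against 9.41% of all genes. hbbe1.1 (red cells), fabp10a and prss1 (liver and pancreas) were higher in mutant clutches, and lyz (leukocytes), he1.1 and ctslb (hatching gland) were lower. In bulk RNA, fewer cells of a type and less RNA per cell cannot be told apart.

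The product of fmr1 is an RNA-binding protein, abundant in neurons, that represses the translation of many messenger RNAs, and its loss causes fragile X syndrome in humans. A chromosome groups genes of unrelated function, but it also carries tandem families, which arise when a gene is copied beside itself and the copies diverge. Such arrays often differ in copy number and sequence between fish of different stocks. On zebrafish chromosome 22 they include zinc finger transcription factor genes, MHC class I genes that present peptides to T cells, hatching enzymes that soften the chorion, and vitellogenins that supply yolk.

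Chromosome 22 genes passed an unadjusted p of 0.05 more often than genes at large, and most of the surplus lay in a single 5 Mb window. In the quasi-likelihood test 112 of the 875 genes had an unadjusted p below 0.05, which is 12.8%, against 9.41% of all genes tested. Of these, 44 were higher in mutant clutches (all genes, 4.22%) and 68 were lower (all genes, 5.19%). The 4 mutant clutches lay entirely above or below the 4 wild type clutches for 60 genes (6.86%, against 4.28% of all genes), 25 above (all genes, 1.78%) and 35 below (all genes, 2.5%). With p-values adjusted over all 23567 genes, 0 chromosome 22 genes passed an FDR of 0.05 in the quasi-likelihood test, and the smallest adjusted p was 0.528. The edgeR likelihood-ratio test, which the study's methods name, gave 116 genes at an unadjusted p below 0.05 (all genes, 9.43%). It called 3 (si:dkey-19a16.13, si:dkey-253d23.3 and ENSDARG00000099023) at that FDR, against 0.132% of all genes. DESeq2 called 3 chromosome 22 genes, against 0.156% of all genes with an adjusted p, and whether they are the same 3 is not reported here. The genes are therefore described below by unadjusted p, and those named at p below 0.05 have a quasi-likelihood adjusted p of 0.528 or 0.529. A p given for a gene is that of the quasi-likelihood test, 2-sided, unless said otherwise. An exact permutation test over 4 clutches against 4 cannot go below 0.0286, the 2-sided value of every gene with separated genotypes.

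The higher and lower genes differed in level. The 44 higher genes had a median level of 0.969 CPM and a median log2 fold change of 1.43, and 23 of them were below 1 CPM. The 68 lower genes had a median level of 33.3 CPM and a median log2 fold change of -0.447, and 3 were below 1 CPM. Among the 624 genes with a mean of at least 1 CPM, 21 were higher and 65 lower at p below 0.05. In the whole series 995 genes were higher and 1223 lower at that p. Of these, 670 and 1157 were among the 18282 genes with a mean of at least 1 CPM. Genes of that level thus leaned to lower in the whole series as well, and the higher genes were more often below it. The split by level is therefore not particular to chromosome 22. The median log2 fold change of all 875 genes was close to 0, at -0.00675, beside 0.0204 for all genes tested.

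The number of genes at p below 0.05 depended strongly on which clutches were included. It was 191 without mutant clutch S5, 73 without mutant clutch S8, and 55 without wild type clutches A and D together, which lay apart from the rest on the first principal component. These are 21.8%, 8.34% and 6.29% of the chromosome 22 genes, against 19.5%, 5.3% and 5.41% of all genes, so without A and D the shares were close to each other.

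By window, the genes starting between 5 and 10 Mb stood out. Of the 137 genes there, 35 had an unadjusted p below 0.05, which is 25.5% (exact 95% interval, 18.5% to 33.7%, treating genes as independent, which neighbouring genes need not be). The other 7 windows held 8.85% to 13%. In the same window 26 genes (19%) had separated genotypes, 13 with mutant clutches above and 13 with mutant clutches below. A run of 7 overlapping gene models, described below, is part of these counts and not 7 separate measurements. All 7 were among the 35 genes, as higher genes, and 6 were among the 13 with mutant clutches above. Of the 257 windows of 5 Mb with at least 50 genes in the whole series, this one ranked 2 by the share at p below 0.05 and 1 by the share of separated genes. The median of those windows was 8.99% and 3.9%.

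The window kept a high share when genes of low level were left out. Among its 70 genes with a mean of at least 1 CPM, 23 (32.9%) were at p below 0.05, 7 higher and 16 lower in mutant clutches. Of the 18282 genes of that level in the whole series, 9.99% were at that p, 670 higher and 1157 lower. The share of all 137 genes was 16.1% without mutant clutch S8 and 17.5% without wild type clutches A and D, still above the 5.3% and 5.41% over all genes. With windows moved by 2.5 Mb the surplus was divided: the highest shares were 19.5% from 7.5 to 12.5 Mb and 18.3% from 2.5 to 7.5 Mb.

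The counts in each direction are given without a test of their difference, beside the 4.22% higher and 5.19% lower of all genes. The first window (0 to 5 Mb, 226 genes) had 5 higher and 15 lower genes at p below 0.05, and its total of 8.85% is below that of all genes. Its share of separated genes was higher than that of all genes, with 19 genes (8.41%, against 4.28%), 6 above and 13 below. The third (10 to 15 Mb, 114 genes) had 2 higher and 12 lower. Within the 5 to 10 Mb window, 9 of the 16 genes that start between 7 and 8 Mb were at p below 0.05, 6 higher and 3 lower, and 9 of the 32 between 9 and 10 Mb were, 3 higher and 6 lower.

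**Figure D1:**
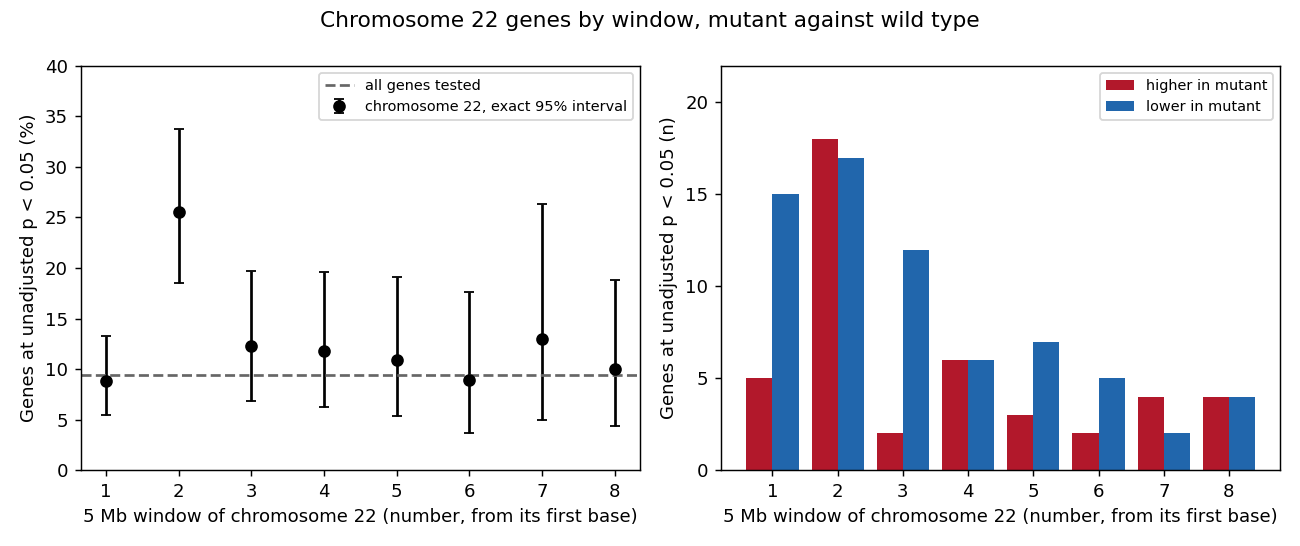
Share of chromosome 22 genes at unadjusted p below 0.05 in each 5 Mb window (left, points with exact 95% intervals, dashed line at the 9.41% of all genes tested) and the number higher or lower in mutant clutches (right, bars). The window from 5 to 10 Mb (number 2) stands at 25.5%, with 18 higher and 17 lower genes, and the other windows lie between 8.85% and 13%.

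Inside that window, a run of genes was absent from the same pair of wild type clutches. This pattern was chosen after the values were seen, and no test was made of it. From 7758462 to 8725768 (GRCz11, as for all positions here), 7 of the 24 genes that start there had 0 counts in wild type clutches A and G and counts in the other 6 clutches. Each of the 7 overlaps another of them, on the same or the opposite strand, so they are not 7 separate measurements. Across the 23567 genes, 7 had 0 counts in A and G and at least 5 counts in each other clutch, and all 7 start between 5 and 10 Mb (6 of the run and 1 further on). An exact 0 here means that no read passed the mapping quality and counting rules, and a 0 allows up to 3 counts.

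The most abundant of them was sc:d217 (ENSDARG00000079645, 7896072 to 8006342, minus strand). With clutches in the order given above, its counts were 258, 296, 146 and 437 in mutant and 0, 90, 0 and 110 in wild type clutches. As CPM these were 7.41, 8.98, 5.37 and 14.1 in mutant clutches and 0, 2.59, 0 and 4.15 in wild type clutches. The 2 wild type clutches with transcript were still below every mutant clutch, and S8 was the highest. The fitted log2 fold change was 2.42 ± 0.999 (SE, p of 0.0345), a mean over wild type clutches that did not resemble each other, and the p was 0.0861 without S8.

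CABZ01034698.2 (ENSDARG00000099511, 7971101 to 8074212, minus strand) overlaps the start region of sc:d217 on the same strand. It had 127, 153, 61 and 197 counts in mutant clutches and 0, 33, 0 and 56 in wild type clutches. The order of the clutches was that of sc:d217 (log2 fold change 2.49, p of 0.0253, and 0.0629 without S8). Reads shared by the overlap were not counted for either gene, so their levels are uncertain.

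The first pair of the run, si:ch73-44m9.3 and si:ch73-44m9.1, share a start at 7758462 on the minus strand and are likewise not separate measurements. si:ch73-44m9.3 had 52, 51, 19 and 44 counts in mutant clutches and 0, 19, 0 and 12 in wild type clutches, and D equalled the lowest mutant clutch, S5, in counts but was below it in CPM. si:ch73-44m9.1 had 23, 19, 21 and 30 counts in mutant clutches and 0, 9, 0 and 9 in wild type clutches. Both were separated between genotypes in CPM (log2 fold changes 2.36 and 2.31, p of 0.0176 and 0.0149).

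ENSDARG00000099023 (8012532 to 8018914, plus strand) lies within CABZ01034698.2, on the opposite strand, and whether their signals are separate was not tested. It had 6, 14, 10 and 18 counts in mutant clutches and 0, 2, 0 and 3 in wild type clutches. With no wild type clutch above 3 counts, the fold of mutant over wild type is given as a lower bound. The mutant mean was 3.96 times the level of 3 counts per library. Its p was 0.00234, and it passed an FDR of 0.05 in the likelihood-ratio test (adjusted p = 0.0151).

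The remaining members of the run lie further on. si:dkey-182g1.2 (ENSDARG00000109368, 8628064 to 8634560, plus strand) had 45, 44, 34 and 76 counts in mutant clutches, against 0, 31, 0 and 12 in wild type clutches (log2 fold change 2.21, p of 0.0294, and 0.0755 without S8). It lies within ENSDARG00000111423, on the opposite strand. Another model of the same name, ENSDARG00000052680 (8753092 to 8770357, plus strand), lies outside the run and did not share the pattern. That model had 227, 227, 168 and 232 counts in mutant clutches and 269, 299, 248 and 185 in wild type clutches (log2 fold change -0.24, p of 0.127). ENSDARG00000111423 (8581752 to 8725768, minus strand) had 21, 27, 9 and 52 counts in mutant clutches, against 0, 5, 0 and 10 in wild type clutches, and it was the only member of the run whose genotypes overlapped in CPM (S5 at 0.331, L at 0.377). Another gene with this pattern, si:ch211-250k18.5 (9239831 to 9255288, plus strand), stood outside the run at 5, 9, 7 and 8 counts in mutant clutches and 0, 6, 0 and 8 in wild type clutches, with p of 0.275.

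The genes between them did not share the pattern. Of the 24 genes, 14 had counts in all 8 clutches, and the other 3 without this pattern had a single clutch at 0. Close neighbours such as ENSDARG00000100357 had 244, 229, 169 and 241 counts in mutant clutches and 150, 161, 210 and 201 in wild type clutches, with overlapping genotypes. si:ch73-44m9.2, which lies inside si:ch73-44m9.3 on the opposite strand, had 37, 15, 24 and 38 counts in mutant clutches and 63, 41, 48 and 27 in wild type clutches. The absence in A and G therefore concerned some genes of the interval and not others.

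One overlapping neighbour went the other way. ENSDARG00000116618 (8589423 to 8725768) ends at the same base as ENSDARG00000111423 and lies on the same strand. It had 31, 47, 34 and 19 counts in mutant clutches, against 48, 52, 93 and 59 in wild type clutches, and the mutant clutches lay below (log2 fold change -0.97 ± 0.34, p of 0.0162). In mutant clutch S8 the one model had its most reads and the other its fewest, and in wild type clutch G the one had 0 and the other its most.

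**Figure D2:**
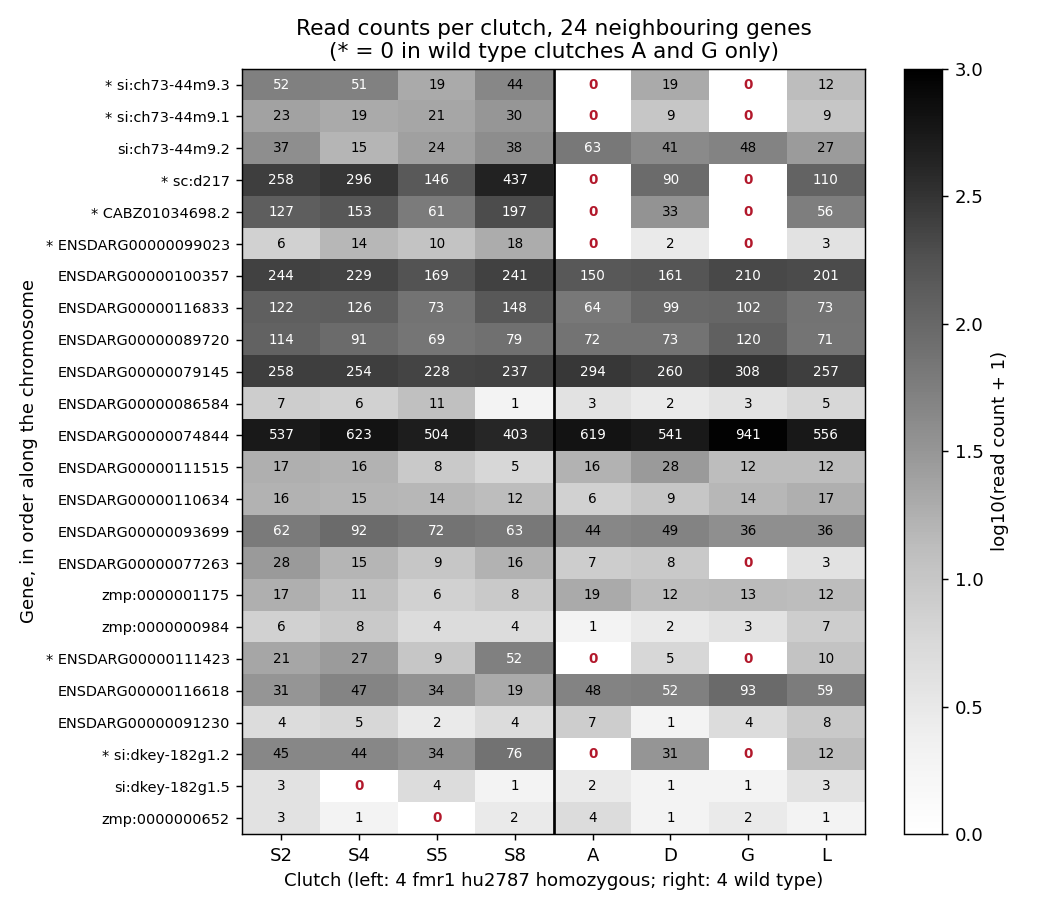
Read counts of the 24 neighbouring genes of the run, in order along the chromosome (rows), in the 4 mutant clutches (left) and the 4 wild type clutches (right). Shading is log10 of the count plus 1. The 7 genes marked with an asterisk are at 0 in wild type clutches A and G and have counts in the other 6 clutches, and the other rows are filled in A and G, apart from ENSDARG00000077263 at 0 in G.

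Presence in some clutches and absence in others took a higher share of these genes than of all genes. At least 1 clutch at 0 and at least 1 at 20 counts or more was found for 15 members (1.71%) and 10 genes of the 5 to 10 Mb window (7.3%), against 0.628% of all genes tested. Besides the genes above, tppp (ENSDARG00000104399, 5478353 to 5479326) had 27, 9, 9 and 20 counts in mutant clutches and 8, 5, 0 and 0 in wild type clutches, at 0 in G and L instead. ENSDARG00000077263 (8506168 to 8509215) had 28, 15, 9 and 16 counts in mutant clutches and 7, 8, 0 and 3 in wild type clutches. Both had separated genotypes, at p of 0.0183 and 0.0161.

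Of these 15 members, only si:dkey-102c8.2, in another window, had a mutant clutch at 0. The others were at 0 in wild type clutches alone. They include most models of the run above, which overlap and are not separate measurements. The split by genotype of such genes in the whole series is not given here, so this lean is a description only. si:dkey-102c8.2 (10085572 to 10086446) had 37, 0, 17 and 54 counts in mutant clutches and 1, 16, 0 and 9 in wild type clutches, so both genotypes held a clutch at 0. lamp3, which in mammals encodes a lysosomal membrane protein, had 2, 4, 1 and 172 counts in mutant clutches and 1, 1, 0 and 3 in wild type clutches. Its counts came almost wholly from S8, and without S8 its p was 0.411.

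The smallest p of the window and of the chromosome belonged to si:dkey-19a16.13 (ENSDARG00000095454, 6320862 to 6322952, plus strand), for which no role is annotated. It had 5, 17, 32 and 26 counts in mutant clutches and 0, 0, 1 and 2 in wild type clutches. All 4 mutant clutches were above the limit of 3 counts and all 4 wild type clutches at or below it. The mutant mean was 6.86 times that limit, a lower bound of the fold of mutant over wild type. The p was 0.000426 and the likelihood-ratio adjusted p 0.000994. Together with ENSDARG00000099023 it was 1 of 2 members (0.229%) above 3 counts in every mutant clutch and in no wild type clutch, against 0.0509% of all genes.

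Further along the window, between 9.6 and 9.9 Mb, 5 genes without an annotated role were lower in mutant clutches. They were picked from the lower genes at p below 0.05, so their direction says nothing of the stretch. Of the 32 genes between 9 and 10 Mb, 3 were higher and 6 lower at that p, against 4.22% and 5.19% of all genes. The nearby zinc finger genes znf990 and znf991 were not (p of 0.157 and 0.0681). The clearest of the 5 was si:dkey-253d23.3 (ENSDARG00000095643, 9862243 to 9868707, plus strand), with 7.58, 5.70, 8.50 and 5.60 CPM in mutant clutches and 12.6, 11.2, 13.4 and 11.2 CPM in wild type clutches. Every wild type clutch was above every mutant clutch. The means were 6.84 ± 1.43 CPM in mutant clutches and 12.1 ± 1.09 CPM in wild type clutches (SD), the log2 fold change was -0.82 ± 0.17 (SE, p of 0.000609), and the likelihood-ratio adjusted p was 0.0449.

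The others of these 5 picked genes were also separated. si:dkey-253d23.4 (9871238 to 9880408, plus strand) had 28.8, 27.5, 29.6 and 26.5 CPM in mutant clutches and 39.6, 33.7, 36.1 and 36.3 CPM in wild type clutches, a small difference (log2 fold change -0.38, p of 0.0026) with little spread. si:dkey-253d23.2 (9827288 to 9861531, minus strand) had 6.69, 4.67, 9.39 and 5.50 CPM in mutant clutches and at least 9.96 CPM in every wild type clutch, with S5 near the wild type range. si:ch211-236g6.1 had a log2 fold change of -0.78 (p of 0.00474) and si:dkey-286j17.4 one of -0.95 (p of 0.00526). All 5 genes kept a p below 0.05 when any single clutch was left out, and also without A and D.

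Between the run and this group, both gene models named si:ch211-213a13.2 were higher. The one at 9060699 to 9096248 had 3.91, 5.37, 3.35 and 5.21 CPM in mutant clutches and 0.835, 1.21, 1.41 and 3.28 CPM in wild type clutches. Its genotypes were just separated, by S5 and L (log2 fold change 1.41, p of 0.00399). The one at 9009496 to 9057108 had a log2 fold change of 0.64 (p of 0.0185) and was also separated. Within the interval of the run itself, ENSDARG00000093699 (8497039 to 8501332, minus strand) was separated too, with reads in every clutch. It had 1.78, 2.79, 2.65 and 2.03 CPM in mutant clutches and 1.41, 1.41, 1.12 and 1.36 CPM in wild type clutches (log2 fold change 0.80, p of 0.0072). si:dkey-19a16.7, near 6.5 Mb, was lower, at 16.3, 8.04, 8.39 and 8.88 CPM in mutant clutches and 18.3, 17.2, 18 and 16.5 CPM in wild type clutches. There S2 was close to the wild type clutches and the other mutant clutches far below.

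Outside this window, ampd2a in the first window gave the smallest p. It encodes an AMP deaminase, which converts AMP to IMP in purine metabolism. It lies at 1205787 to 1245226 on the minus strand and had 7.41, 8.82, 8.43 and 7.72 CPM in mutant clutches and 5.17, 4.92, 4.94 and 4.76 CPM in wild type clutches. The genotypes were far apart beside their spread, 8.09 ± 0.647 CPM in mutant clutches and 4.95 ± 0.170 CPM in wild type clutches (SD), with a log2 fold change of 0.71 ± 0.14 (SE, p of 0.000462). The p stayed at or below 0.00191 when any single clutch was left out. elf3, an epithelial transcription factor of the ETS family, was higher as well, at 14.1, 10.8, 16.3 and 27.2 CPM in mutant clutches and 6.87, 7.72, 10.1 and 9.74 CPM in wild type clutches (log2 fold change 0.99, p of 0.00336). S8 was the highest clutch, and the lowest mutant clutch, S4, was just above the highest wild type clutch, G.

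Of the lower genes, 5 are described next. ncl and mbd3b had the smallest p of their windows, and mcm2, uhrf1 and lmnb2 were picked from the lower genes at p below 0.05, so their direction was fixed by the choice and says nothing of a group. mcm2, a subunit of the replicative helicase, had 116, 118, 165 and 81.8 CPM in mutant clutches and 191, 174, 181 and 167 CPM in wild type clutches. uhrf1, which maintains DNA methylation after replication, had 64.5, 81.3, 84.1 and 48.4 CPM in mutant clutches and 121, 111, 102 and 77.8 CPM in wild type clutches. mcm2 was separated and uhrf1 overlapped, with L inside the mutant range. Their log2 fold changes were -0.57 (p of 0.0102) and -0.56 (p of 0.0131).

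ncl, the nucleolin of ribosome assembly, gave the smallest p of the last window, with 463, 468, 566 and 487 CPM in mutant clutches and 785, 748, 631 and 558 CPM in wild type clutches. L was below S5, so the genotypes overlapped (log2 fold change -0.46, p of 0.00951). lmnb2, a lamin of the nuclear envelope, had 202, 216, 220 and 167 CPM in mutant clutches and 308, 296, 247 and 230 CPM in wild type clutches and was separated (log2 fold change -0.43, p of 0.011). mbd3b, of the NuRD chromatin remodelling complex, led the window from 20 to 25 Mb, with 110, 99.7, 117 and 92.8 CPM in mutant clutches and 146, 145, 125 and 125 CPM in wild type clutches (log2 fold change -0.37, p of 0.00866). The highest wild type values of all these genes were in A or D. Without A and D, the 5 genes had log2 fold changes of -0.52 (mcm2, p of 0.0533), -0.35 (uhrf1, p of 0.152), -0.25 (ncl, p of 0.123), -0.23 (lmnb2, p of 0.159) and -0.24 (mbd3b, p of 0.102).

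Among the other genes with the smallest p, tmprss9, a transmembrane serine protease, had 16.8, 13.6, 18.8 and 13.1 CPM in mutant clutches and 27.6, 24.4, 20.7 and 22.6 CPM in wild type clutches, separated, with a log2 fold change of -0.62 (p of 0.00177), the smallest p between 10 and 15 Mb. midn, or midnolin, which in mammals takes nuclear proteins to the proteasome, had 123, 123, 122 and 106 CPM in mutant clutches and 175, 182, 157 and 131 CPM in wild type clutches (log2 fold change -0.45, p of 0.00463). It was separated, though L was nearer to the mutant clutches than to A and D, and without A and D its p was 0.0778. enc3, whose genotypes overlapped, had a log2 fold change of -0.63 (p of 0.00841) that was -0.24 (p of 0.192) without A and D.

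**Figure D3:**
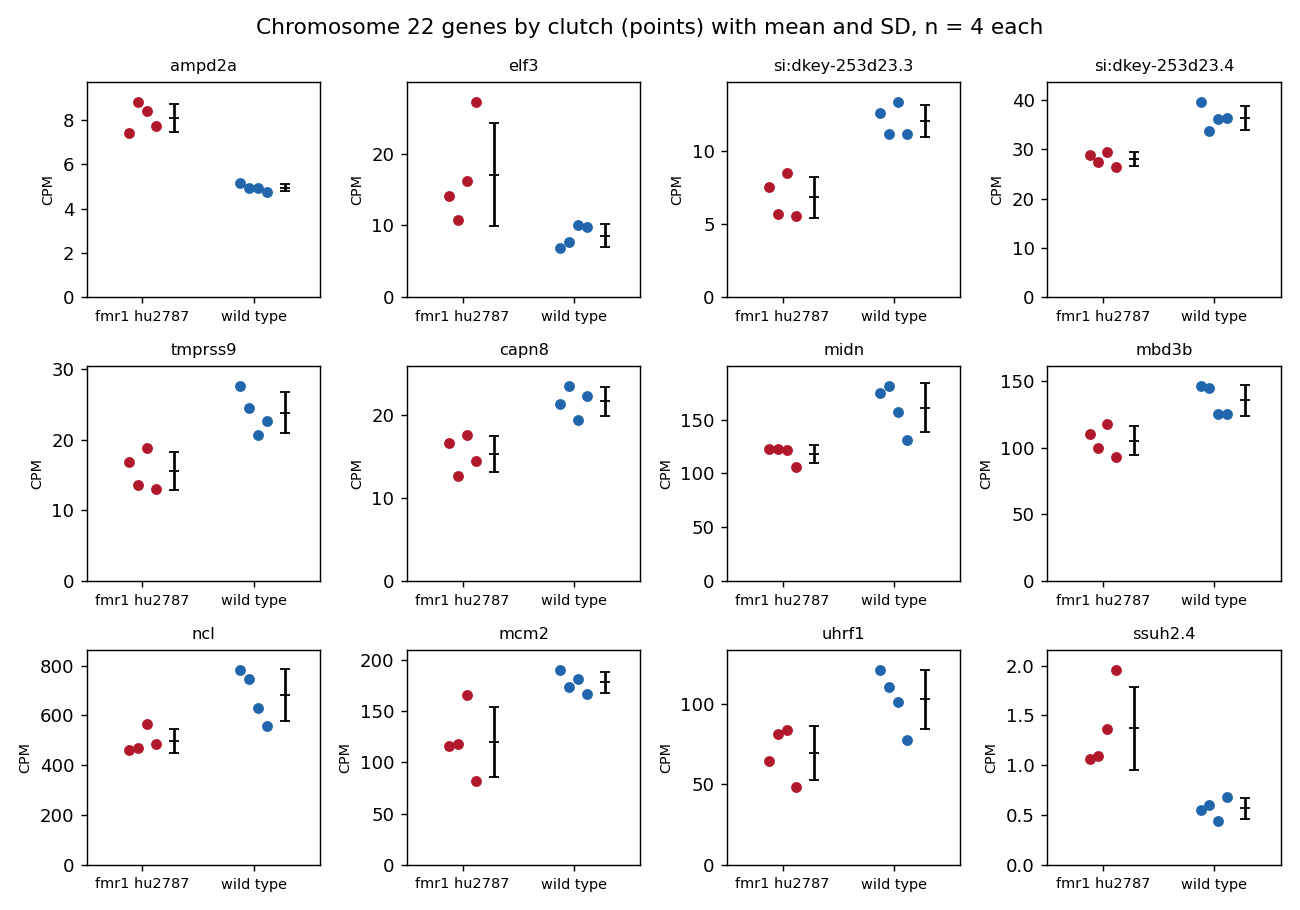
CPM of 12 chromosome 22 genes in each clutch (points), with the mean and SD of the 4 mutant clutches (left of each panel) and the 4 wild type clutches (right), each axis from 0. In ampd2a, at 8.09 CPM in mutant and 4.95 CPM in wild type clutches, the spread is small beside the difference, and in ncl and uhrf1 the genotypes overlap.

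Families of neighbouring genes were formed from gene names (mostly a common stem, in a few cases the known family, as for the leucine-rich repeat protein genes ogn, omd, aspn and ecm2, or a description, as for FO904903.1), where each start lay within 500 kb of the next. There were 33 families with 121 members, of which 23 (19%) had an unadjusted p below 0.05, 11 higher and 12 lower in mutant clutches, against the 9.41% of all genes. The families were chosen with earlier results of these data known, so this share is a description and no test. In 18 families no member was at that p. In 5 families, each of 2 gene models, both were. Among these are lrp1ba and fgfr1bl, where both models bear the same name and need not be separate genes.

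Of 3 hatching enzymes, 2 were lower at p below 0.05. he1.1, at 14093306 to 14094746, had 92.4, 79.6, 248 and 47.5 CPM in mutant clutches and 611, 306, 179 and 238 CPM in wild type clutches. he1.2 had 37.4, 23.5, 108 and 16.9 CPM in mutant clutches and 218, 138, 85.0 and 82.3 CPM in wild type clutches. In both, S5 lay among the wild type clutches and the other mutant clutches below all of them. The log2 fold changes were -1.51 ± 0.51 (p of 0.0127) and -1.50 ± 0.54 (p of 0.0184), and without A and D they were -0.83 (p of 0.148) and -0.85 (p of 0.193). he1.3 was low, at 0, 3, 1 and 5 counts in mutant clutches and 17, 4, 4 and 3 in wild type clutches (p of 0.0875). The other hatching gland marker, ctslb, which is not on this list of members, moved with them, at 0.574, 0.515, 1.62 and 0.354 CPM in mutant clutches and 3.53, 2.13, 1.25 and 2.42 CPM in wild type clutches (log2 fold change -1.62, p of 0.00676). Summed over the 2 hatching gland markers, he1.1 itself and ctslb, levels were 47.9 to 249 CPM in mutant clutches and 180 to 615 CPM in wild type clutches. Nearly all of this sum was he1.1, so it is no separate measure of the gland. The part of the number of gland cells or of their stage in the result was not tested.

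The MHC class I pair at 3.91 Mb was lower and separated. mhc1uma had 1.29, 1.30, 1.77 and 1.7 CPM in mutant clutches and 2.34, 2.33, 2.59 and 1.85 CPM in wild type clutches (log2 fold change -0.59, p of 0.0275, and 0.0774 without G). FO904903.1, annotated as MHC class I ULA, had 2.07, 1.64, 2.17 and 2.93 CPM in mutant clutches and 3.31, 3.74, 4.59 and 3.21 CPM in wild type clutches (log2 fold change -0.76, p of 0.0086). MHC class I genes are expressed widely, and among the leukocyte markers only lyz was matched, at 12.9 to 21.2 CPM in mutant clutches and 14.8 to 27.8 CPM in wild type clutches (p of 0.0286). Its part in the result was not tested.

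Of 3 sulfotransferases, enzymes that add sulfate to small molecules, 2 were higher at p below 0.05. sult3st3 had 0.976, 1.39, 0.331 and 3.86 CPM in mutant clutches and 0.161, 0.115, 0.500 and 0.415 CPM in wild type clutches (log2 fold change 2.47, p of 0.00585). sult3st2, the gene with the smallest p between 15 and 20 Mb, had 1.06, 0.637, 0.552 and 1.7 CPM in mutant clutches and 0.161, 0.259, 0.500 and 0.264 CPM in wild type clutches (log2 fold change 1.73, p of 0.00423). S8 was highest in both, and only sult3st2 was separated. The middle member, sult3st4, had overlapping genotypes and a p of 0.101.

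The pair of membrane protein genes tm4sf4 and tm4sf18 showed the same high clutch. tm4sf4 had 3.73, 5.85, 3.83 and 14.1 CPM in mutant clutches and 2.12, 2.25, 3.66 and 3.89 CPM in wild type clutches (log2 fold change 1.21, p of 0.0171), and 0.61 with p of 0.0691 without S8. tm4sf18 had 1.72, 3.82, 1.03 and 4.24 CPM in mutant clutches and 2.18, 0.633, 0.781 and 1.13 CPM in wild type clutches (log2 fold change 1.2, p of 0.0381, and 0.118 without S8). The pancreatic elastase CELA1 (1 of many) had 1.87, 4.03, 1.95 and 3.86 CPM in mutant clutches and 2.06, 1.61, 1.28 and 1.85 CPM in wild type clutches (log2 fold change 0.79, p of 0.0305, and 0.0991 without S4). S4 and S8 were high in both of the last 2 genes. The liver and pancreas markers fabp10a and prss1 were high in the same clutches, with summed levels of 7.66 to 26.1 CPM in mutant clutches and 2.48 to 11.9 CPM in wild type clutches, and both at p below 0.05 (0.0113 and 0.0279). Their part in these results was not tested.

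Other pairs bore a shared name or went in opposite directions. The models named lrp1ba, after a receptor of the LDL receptor family, overlap on the minus strand and were both higher (log2 fold changes 1.13 and 1.0, p of 0.0136 and 0.0283), and they bear 1 name. The adjacent models named fgfr1bl, after a fibroblast growth factor receptor, were both lower (log2 fold changes -0.96 and -0.74, p of 0.0464 and 0.0341). In both pairs the genotypes overlapped, and without A and D the p was 0.0922 and 0.102 for lrp1ba and 0.387 and 0.155 for fgfr1bl. The neighbours rgs2 and rgs13, which speed GTP hydrolysis by G proteins, differed in direction: rgs2 was lower (3.19, 2.67, 5.37 and 3.15 CPM in mutant clutches, 4.82, 6.02, 6.75 and 6.42 CPM in wild type clutches, p of 0.0105), with S5 above A. rgs13 was higher (p of 0.0314, and 0.102 without S8) but near the limit of 3 counts, at 0.110 to 0.322 CPM in mutant clutches and 0.0377 to 0.0937 CPM in wild type clutches.

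In the following families 1 member was at p below 0.05, and its difference from the others was not tested. Of 4 calpains, which are calcium-dependent proteases, capn8 was lower (16.6, 12.7, 17.6 and 14.4 CPM in mutant clutches, 21.4, 23.6, 19.5 and 22.3 CPM in wild type clutches, log2 fold change -0.50, p of 0.00316), and it had the smallest p between 25 and 30 Mb. Of 3 ssu-2 homologues, ssuh2.4 was higher (1.06, 1.09, 1.36 and 1.96 CPM in mutant clutches, 0.546, 0.605, 0.437 and 0.679 CPM in wild type clutches, log2 fold change 1.27, p of 0.00198), the smallest p between 30 and 35 Mb. Both were separated. Of 3 keratins krt96 was lower (log2 fold change -0.78, p of 0.00748), of 2 DNase I-like genes dnase1l4.1 (-0.52, p of 0.0235), of 3 transducin-like co-repressors tle2a (-0.38, p of 0.0367), and of 3 G protein alpha subunits gna15.3 was higher (1.08, p of 0.0341). The genotypes of these 4 overlapped. Without S8 the p was 0.0667 for dnase1l4.1, 0.0982 for tle2a and 0.107 for gna15.3. That of krt96 stayed at or below 0.0257 when any single clutch was left out.

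The largest family, 37 C2H2 zinc finger genes at 1.35 to 2.84 Mb, had few members at p below 0.05. Of these, 17 were higher and 20 lower, and 2 had a p below 0.05 (5.41%). znf1179 had 41.4, 36.6, 36.4 and 39.8 CPM in mutant clutches and 22.7, 25.7, 33.9 and 27.7 CPM in wild type clutches (log2 fold change 0.49, p of 0.00332). znf1156 had 14.2, 14.5, 10.1 and 12.1 CPM in mutant clutches and 17.1, 16.6, 17.8 and 20.8 CPM in wild type clutches (log2 fold change -0.50, p of 0.00564). Both were separated, and 15 of the 37 genes were below 1 CPM. In the whole interval from the first to the last of them, 5 of 109 genes (4.59%) had a p below 0.05, against 9.41% of all genes, and 8 (7.34%) had separated genotypes, against 4.28% of all genes. Just before it, the unannotated neighbours CU207221.1 (22.5, 26.8, 30.9 and 28.3 CPM in mutant clutches, 38.0, 39.0, 35.1 and 34.1 CPM in wild type clutches) and CU207221.2 (0.861, 0.910, 0.810 and 0.772 CPM in mutant clutches, 1.51, 1.27, 1.56 and 1.59 CPM in wild type clutches) were lower and separated, at p of 0.00372 and 0.00605.

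The vitellogenins, yolk precursors that are made in the liver of the mother, showed no difference that passed the test, and all 4 were low. vtg1 had 0.287, 0.273, 1.03 and 1.25 CPM in mutant clutches and 0.867, 0.633, 0.844 and 0.415 CPM in wild type clutches. vtg7 had 0.201, 1.36, 0.847 and 3.15 CPM in mutant clutches and 0.578, 0.317, 1.75 and 1.47 CPM in wild type clutches. Both varied more between clutches of a genotype than between genotypes. vtg2 had 1, 2, 3 and 2 counts in mutant clutches and 11, 2, 0 and 2 in wild type clutches, and vtg8 had 4, 4, 8 and 3 in mutant clutches and 0, 0, 6 and 2 in wild type clutches. Likewise 0 of 6 complement factor H-like genes, which restrain complement, and 0 of 2 complement C3 genes had a p below 0.05.

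**Figure D4:**
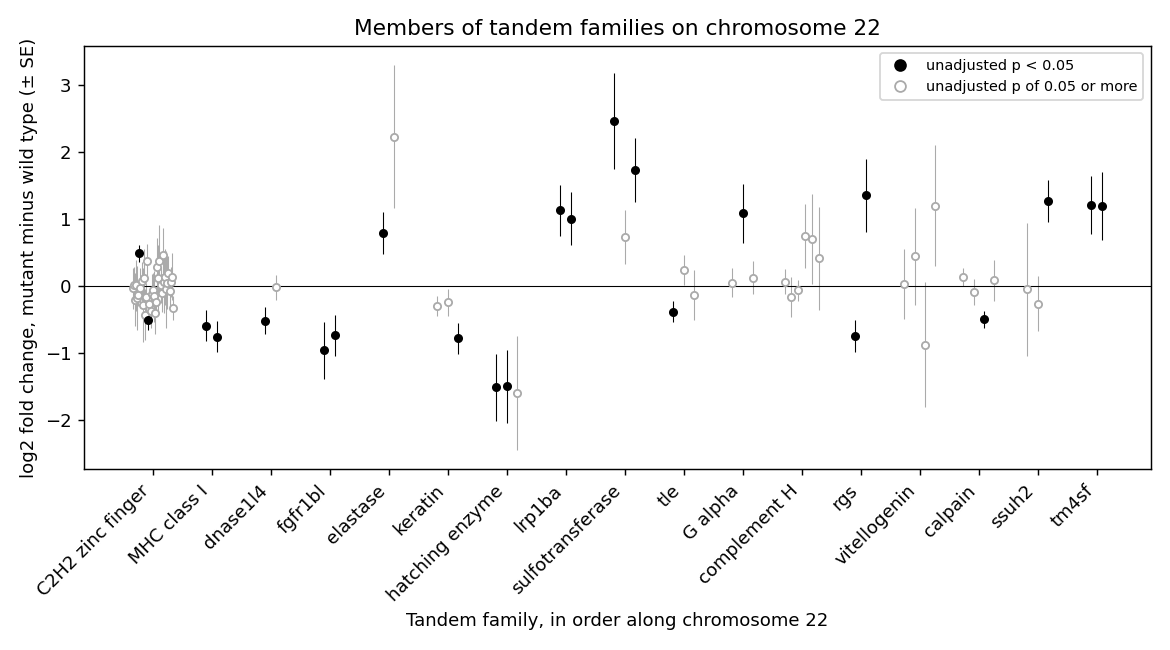
Log2 fold change (mutant minus wild type, points, with SE) of the members of 17 tandem families, in order along chromosome 22, filled where the unadjusted p is below 0.05. The hatching enzymes he1.1 and he1.2 lie near -1.50, the sulfotransferases above 0 with 2 of 3 filled, and the 37 zinc finger genes around 0 with 2 filled points.

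The spread between clutches of a genotype was measured as the residual SD of log2 CPM. Its median was 0.33 over the 875 genes and 0.307 over all genes tested, and chromosome 22 ranked 3 among the chromosomes. Among genes with a mean of at least 1 CPM, the medians were 0.255 and 0.252, and chromosome 22 ranked 11. The 5 to 10 Mb window had the highest median, 0.464 over all its genes and 0.3 over those with at least 1 CPM. The lowest median, 0.252, was between 10 and 15 Mb.

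Of members with at least 1 CPM, the 5 with the widest spread included sc:d217 (residual SD 2.37) and CABZ01034698.2 (1.93), both of the run described above. pdgfa (ENSDARG00000109371, 26085343 to 26100282), named after a platelet-derived growth factor, had 37, 87, 65 and 43 counts in mutant clutches and 86, 0, 54 and 37 in wild type clutches, at 0 in D alone. Its neighbour pdgfaa had 6.72, 5.82, 10.5 and 6.46 CPM in mutant clutches and 10.2, 12.4, 11.2 and 9.25 CPM in wild type clutches, with D the highest. pdgfaa was lower in mutant clutches, with overlapping genotypes (log2 fold change -0.55, p of 0.0191, and 0.0547 without D). si:dkey-222p3.1 had 127, 10, 68 and 90 counts in mutant clutches and 5, 46, 3 and 67 in wild type clutches, and ENSDARG00000094110 had 155, 57, 177 and 147 in mutant clutches and 57, 7, 275 and 126 in wild type clutches. In these last 3 of the 5 the level followed single clutches of either genotype, with p of 0.656 (pdgfa), 0.203 and 0.815.

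By clutch, S5 was the farthest from its genotype mean for 23.1% of the chromosome 22 genes (all genes, 26.3%), followed by L with 15.9% (all genes, 15.6%). G was farthest least often, for 7.2%. The median absolute deviation of log2 CPM was 0.272 in S5 and 0.181 to 0.203 in the other mutant clutches, and 0.179 to 0.213 in wild type clutches. S5 had the highest deviation in all 8 windows. Over all genes its deviation was 0.251, also the highest of the 8 clutches.

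**Figure D5:**
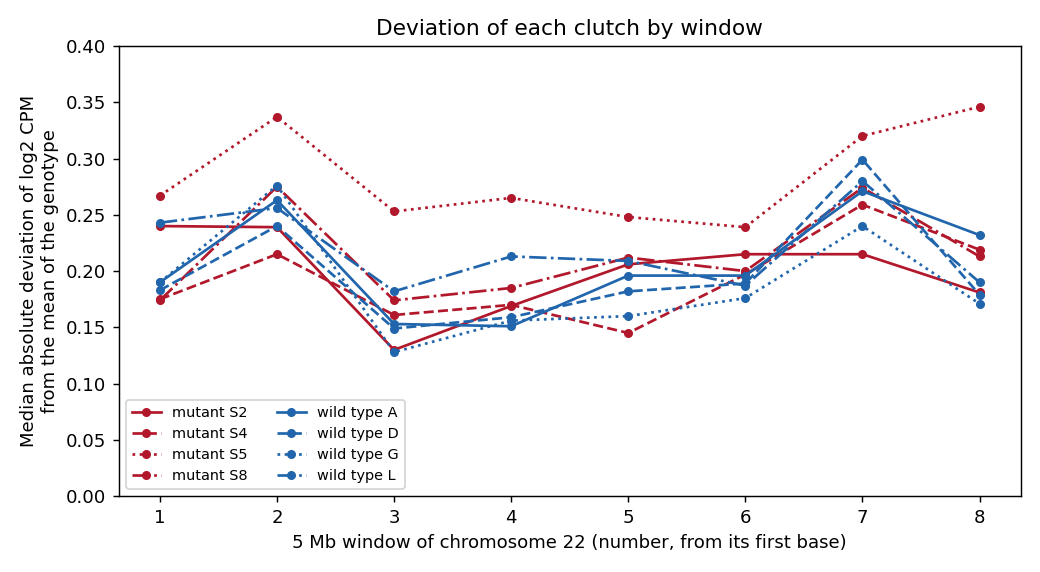
Median absolute deviation of log2 CPM from the mean of the genotype, by 5 Mb window of chromosome 22, for the 4 mutant and the 4 wild type clutches (1 line each). Mutant clutch S5 is the highest line in every window, from 0.239 to 0.346, and most other lines have higher values in windows 2 and 7.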

How the data were processed

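RNA was sequenced from 8 clutches, 4 homozygous for fmr1 hu2787 and 4 wild type, grouped by the titles of their labels. The authors deposited raw counts per gene, made with featureCounts (1.5.2) from STAR (2.5.3a) alignments to GRCz11 with Ensembl release 94 annotation, on the gene's strand, with a mapping quality of at least 10. Read pieces that fell in overlapping exons of 2 genes or on near-identical copies were not counted, so overlapping gene models and recent duplicates have uncertain levels. Gene positions are those of the deposited table. Names came from the study's supplement (90 members) or a name table (714), and 71 members had none.

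Genes kept had over 1 count in 4 libraries or more, the filter the study states, though it left another number of genes here, and were scaled with TMM and tested in R (4.3.3) with edgeR (4.0.16), mutant over wild type, by the quasi-likelihood test with Benjamini-Hochberg adjustment over every tested gene. The study's conditional quantile normalisation was not repeated, since it needs the GC content of each gene. log2 CPM used a prior count of 2. Where all clutches of a genotype had at most 3 counts, a lower bound of the fold change was computed against 3 counts per library. This limit covers counting error only, and depth is given with the samples. The intervals of the window shares treat genes as independent and do not cover the spread between clutches.

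Named genes were those at an FDR below 0.05 in either edgeR test, the 20 with the smallest p among members of at least 1 CPM, the smallest p of each window, members of families with a gene at p below 0.05 (at most 4 in full), the 5 with the widest spread, and all vtg, mhc1 and he1 genes, with fmr1 as the check. Others, such as the run of genes absent in clutches A and G, tppp, lamp3, pdgfaa, and mcm2, uhrf1 and lmnb2, were added after their values were seen. Members, families and lists were chosen with earlier results of these data known. Alternatives were other scalings, filters and tests (DESeq2 1.42.0, limma 3.58.1), a replicate block, and leaving out clutches. Families were formed from symbols, because protein sequences were not used here.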

Additional observations from a re-analysis of the deposited data

Results flagged for a closer look

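In each group of 4 clutches, the gap of the highest or lowest clutch to its nearest neighbour, divided by the range of the group, was compared with the critical value of 0.829 for 4 samples. Of 146 groups (the genes named in the text, in each genotype), 10 exceeded it. Chance gives about 1 in 20 for genes chosen without regard to their values. Some genes here were named for wide spread or after their values were seen, and some overlap. The count therefore cannot be set against that rate. Mutant clutch S8 stood apart in lamp3 (ratio 0.985, 5.53 CPM against 0.121 in the next clutch), in midn (0.958, the lowest at 106 CPM against 122), in si:dkey-182g1.2 (ENSDARG00000109368, 0.931, 2.44 CPM against 1.33) and in zmp:0000000606 (0.853, 1.22 CPM against 0.424). zmp:0000000606 is a gene of unknown role with p of 0.00447 that was chosen after its values were seen.

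Mutant clutch S2 was the highest in si:dkey-19a16.7 (0.898, 16.3 CPM against 8.88) and the lowest in si:ch211-250k18.5 (0.879, 0.144 CPM against 0.257). Mutant clutch S5 was the lowest in si:ch73-44m9.3 (0.845, 0.699 CPM against 1.41) and the highest in vtg8 (0.875, 0.294 CPM against 0.121). Among wild type clutches, A was the highest in he1.3 (0.973, 0.546 CPM against 0.125) and L the lowest in tle2a (0.831, 128 CPM against 140).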

How the results depend on the processing

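The counts of chromosome 22 genes at p below 0.05 (112), with separated genotypes (60) and in the window from 5 to 10 Mb (25.5% at p below 0.05) were within 1.5 times, or within the interval of the share, under the other scalings, filters and tests, except as follows. At an FDR below 0.05 the count was 0 in the quasi-likelihood test (all genes, 0.0127%), 3 in the likelihood-ratio test (all genes, 0.132%) and 3 in DESeq2 (all genes with an adjusted p, 0.156%). At p below 0.01 the highest window, from 5 to 10 Mb, held 8.03%, and the others held 1.09% to 6.52%. The share of all genes at that cut is not given here. Leaving out 1 clutch gave 73 to 191 genes at p below 0.05, 72 to 190 separated genes (98 without L and 190 without S5, where the shares were 11.2% and 21.7% against 9.27% and 19.2% of all genes), 16.1% to 31.4% of the window, 0 genes at that FDR, and a median residual SD of 0.31 to 0.335. Without wild type clutches A and D, an alternative chosen after seeing the data, there were 55 genes at p below 0.05, 136 separated genes (15.5%, against 15.1% of all genes) and 17.5% in the window. Genes with at least 1 CPM had a median residual SD of 0.255 (0.33 over all members). The cause of these differences was not tested. Families with starts within 100 kb numbered 34 (33 within 500 kb). The identity limit for families was not run.

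Of 1367 single-gene values under alternatives, 1223 kept direction and side of the threshold, 120 lost p below 0.05, 7 gained it and 17 turned. All that turned were of genes with p of 0.369 or more: the log2 fold change of vtg1 (0.03) was -0.28 with limma-voom, -0.19 with the replicate block, -0.20 with a term for clutch numbers 1 and 2 against 3 and 4, -0.0178 with bias-adjusted deviances and -0.40 to 0.30 with 1 clutch left out. Without A and D, those of vtg7 (0.44), vtg2 (-0.88) and ENSDARG00000094110 (0.18) were -0.21, 0.82 and -0.61. With 1 clutch left out they were -0.33 to 0.83, -1.29 to 0.53 and -0.21 to 0.96, and that of pdgfa (0.36) was -0.0536 to 0.87.

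Between clutches of the same number, deviations from the genotype mean correlated at r of 0.249, -0.209, -0.0122 and 0.181. These values cannot show whether such clutches share more than a number. The replicate block gave 121 genes at p below 0.05 (13.8%, against 9.43% of all genes) and 27% of the window. A term for clutch numbers 1 and 2 against 3 and 4 gave 143 genes (16.3%, against 12.9% of all genes) and 28.5% of the window. At these depths, genes under about 10 counts per clutch can show only large differences.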
